A study of Caenorhabditis elegans with 9 samples.

Results

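These 41 genes were lower in the RNA labelled H than in the RNA labelled N in wild type Caenorhabditis elegans, and stood near or above 0 on average in a hif-1 mutant. The 41, of 7200 named genes (0.569%), were chosen by their measured values in those genotypes: a hif-1 mutant mean of -0.2 or more, and a wild type mean of -0.7 or less with every present wild type array below 0. Values are log2 ratios of H over N, averaged over the spots of a gene after each array was centred on its median, so a negative value means less RNA in H. Genes of the cest, pals, idp, nlp and eif families and of the mitochondrial genome were to be left out, and 0 genes that met the thresholds belonged to them. The choice used the hif-1 mutant and wild type arrays, so values from those genotypes are given as a description. Only the vhl-1 mutant response, in a fit whose spread comes from all 9 arrays, is read as a test; calls on the other genotypes are printed as counts with nothing read from them.

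The series compared H with N on 9 spotted 2-colour arrays of total RNA, 3 from a vhl-1 mutant, 3 from a hif-1 mutant and 3 from wild type. Both RNAs of an array came from one genotype and carry the same replicate number. Cy3 (channel 1) carried H and Cy5 (channel 2) carried N on every array. The series is titled for the hypoxia response, so H is read as hypoxia and N as normoxia. Alleles, strain, age, sex, tissue, oxygen level and exposure time are not stated in the sources at hand, nor whether replicates were separate cultures, so p-values measure only the spread between these samples. The ratio was read as base 2 and as channel 2 over channel 1, from the wording of the sample titles, and its sign was turned; this direction is likely, not stated, and with the opposite reading every fall below would be a rise.

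HIF-1 is a transcription factor that cells accumulate when oxygen is scarce. In oxygenated cells the hydroxylase EGL-9 modifies HIF-1, and VHL-1, the substrate-recognition part of a ubiquitin ligase, then marks it for degradation. A hif-1 mutant therefore lacks the factor, while a vhl-1 mutant cannot remove it by this route and holds it at a high level also in oxygenated cells. HIF-1 is best known for raising transcripts, and genes whose RNA is lower in hypoxia when HIF-1 is present are less well described. Total RNA does not tell fewer cells of a type from less RNA per cell. Of 18 listed genes of the HIF pathway only F22B5.4 was among the named genes, and it was not a member; hif-1 and vhl-1 were not named, so neither mutation could be verified from the ratios. Of 24 listed tissue markers 2 were named, 0 were members and 0 passed the test in the vhl-1 mutant; a ratio of H over N gives no level, so the tissues in the samples were not checked.

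Of the 41 members, 38 carry only a clone-based gene name, and no function is given for them in the sources used here. The other three have gene names: ttbk-2.2 belongs to a family named for tau tubulin kinases, irg-8 is named as an infection response gene, and nssp-36 is given by name only. 39 are annotated as protein coding and 2, C06G3.4 and F16G10.15, as pseudogenes. In the WBcel235 gene table the X chromosome held 12 of the 41 (29.3%, against 16.4% of all named genes), chromosome III 8 (19.5% against 12.2%) and chromosome V 6 (14.6% against 23.2%); these shares were not tested. Chromosomes II, I and IV held 7, 4 and 4. The nearest pair, T02G6.3 and Y47H9B.2 on chromosome I, lay 3 genes apart, and the next, F21G4.3 and R07B1.5 on X, 9 genes apart. The members' 45 spots lay in 23 of the 32 print blocks of the array, with at most 4 in one block.

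**Figure D1:**
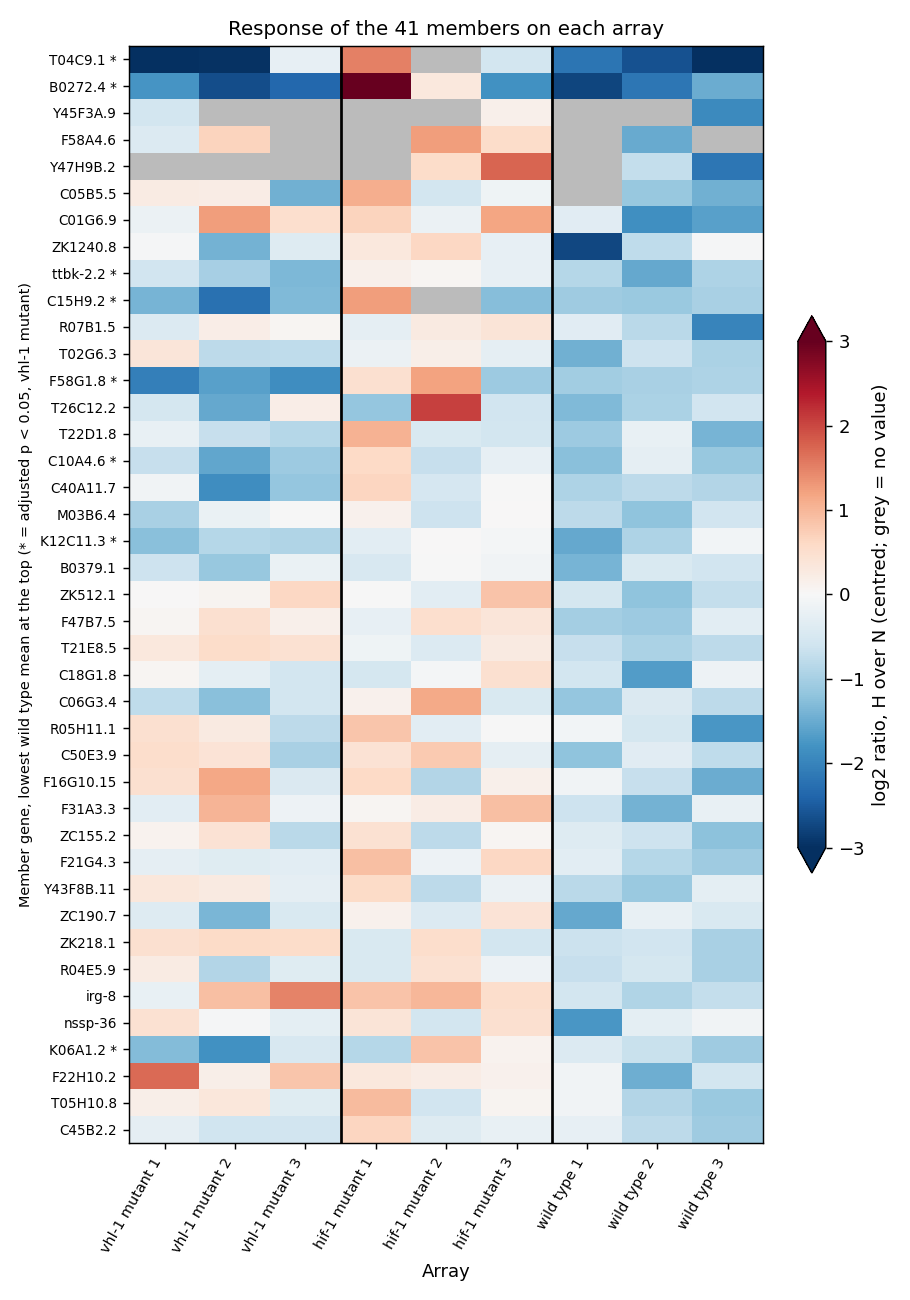
Log2 ratio of H over N for each of the 41 members (down, lowest wild type mean at the top) on each of the 9 arrays (across), blue below 0 and red above 0, grey where there is no value; colours saturate at 3. Wild type columns are blue wherever there is a value because the choice required it. They are grey in part for Y45F3A.9, F58A4.6, Y47H9B.2 and C05B5.5. The hif-1 mutant columns are mixed, and the vhl-1 mutant columns hold both all-blue rows such as F58G1.8 and all-red rows such as ZK218.1.

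The wild type means of the members ran from -2.68 to -0.70 with a median of -0.81, and 12 members were at -1 or lower. Medians over the members were 0.36, 0.01 and -0.01 on hif-1 mutant arrays 1, 2 and 3, against -0.82, -0.87 and -0.93 on wild type arrays 1, 2 and 3. hif-1 mutant means ran from -0.20 to 1.14 with a median of 0.11, and 27 of the 41 were above 0. Of 36 members with all 3 hif-1 mutant values, 3 were above 0 on every array (irg-8, F31A3.3 and F22H10.2), 1 was below 0 on every array (B0379.1) and 32 were mixed. Over all named genes 15.5% were above and 18.3% below 0 on every hif-1 mutant array; the threshold on the mean bears on the members' counts. The median SD between replicate arrays of a member was 0.58 in the hif-1 mutant and 0.43 in wild type, against 0.47 and 0.36 over all named genes. Across features, which are no independent replicates, pairs of replicate arrays correlated at 0.521 to 0.707 (vhl-1 mutant), 0.179 to 0.318 (hif-1 mutant) and 0.216 to 0.507 (wild type). The median over all 36 pairs of arrays, most of them across genotypes, was 0.368, above the medians within the hif-1 mutant (0.300) and wild type (0.327). hif-1 mutant array 3 correlated at 0.455, 0.556 and 0.433 with the vhl-1 mutant arrays, against 0.318 and 0.300 with the other hif-1 mutant arrays.

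The wild type condition was met by 192 named genes, of which 149 had a hif-1 mutant mean below -0.2 and 2 had no hif-1 mutant value. The same thresholds with the genotypes exchanged (hif-1 mutant at -0.7 or less and below 0 on every array, wild type at -0.2 or more) were met by 130 genes. Of 35 members with all 6 values, 15 (42.9%) had every hif-1 mutant array above every wild type array, as were 4.31% of the 6921 named genes with all 6 values; the choice itself used these values. In the fit over all 20858 features the hif-1 mutant minus wild type contrast was called for 0 features (0%) and for 0 of 38 tested members (limma; lowest adjusted p among members 0.603), while 1239 features and 17 members had an unadjusted p under 0.05. This contrast was used in the choice, so nothing is read from the members' counts. The wild type response itself passed for 2 members, T04C9.1 and ttbk-2.2, where 1.19% of all features were lower, again on values the choice had used.

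**Figure D2:**
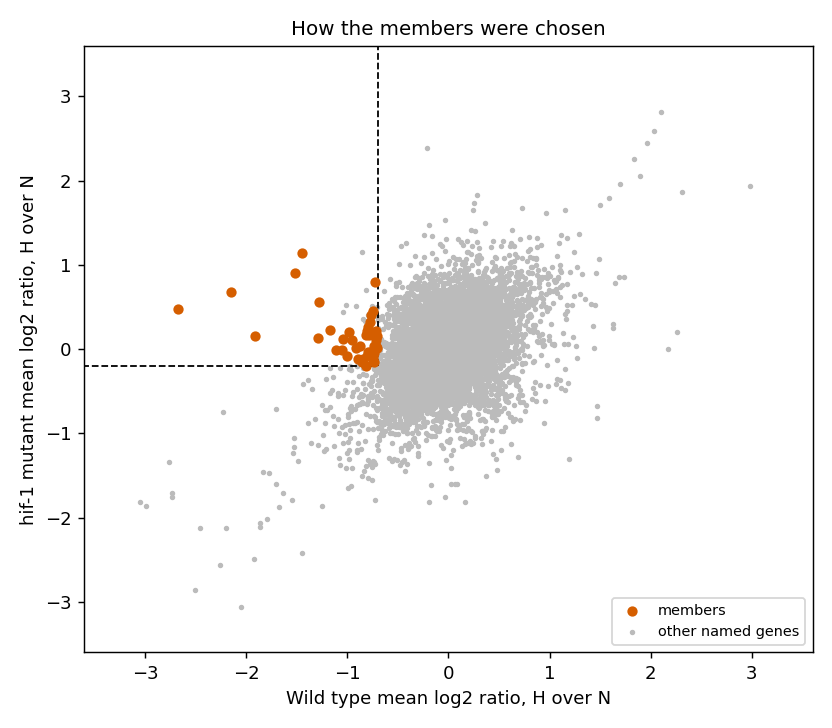
Mean log2 ratio of H over N in wild type (x) and in the hif-1 mutant (y) for the named genes, with the members in orange and the mean thresholds of -0.7 and -0.2 as dashed lines. The members are the upper left edge of one continuous cloud, and most lie close to the wild type threshold.

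The thresholds cut through this cloud without a gap. Just inside the wild type threshold were C45B2.2 (-0.701), T05H10.8 (-0.702) and F22H10.2 (-0.711), and just outside were ZK697.8 (-0.699), dlgr-1 (-0.699) and C44B7.7 (-0.697). dlgr-1 was at -1.43 in the vhl-1 mutant, lower than all but 4 members. Just inside the hif-1 mutant threshold were B0379.1 (-0.199), ZK218.1 (-0.158) and M03B6.4 (-0.157), and just outside were msrp-7 (-0.202), H04M03.11 (-0.206) and R10D12.6 (-0.206). C34C12.7 and gtnt-14 missed the condition on single wild type arrays, with a highest wild type value of 0.01 each, and F19B10.11 with 0.04.

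The vhl-1 mutant arrays ask whether the same RNAs fall in hypoxia in animals without this route of HIF-1 removal. Of the 38 members that could be tested (2 or more arrays with a value in each genotype), 8 were lower in H in the vhl-1 mutant (21.1%) and 0 were higher (limma's moderated test over all 20858 features, adjusted p under 0.05). In the same fit 3.61% of the 7179 named genes were lower and 2.55% higher, and 5.15% and 4.03% of all features. Unadjusted limma p values under 0.05 were found for 12 of the 38 with lower values in H (31.6%, against 12.6% of named genes). They were found for 3 of the 38 with higher values in H, against 11.1% of named genes. The median vhl-1 mutant response of the 38 was -0.33, with -0.20, -0.33 and -0.42 on arrays 1, 2 and 3, against -0.04 over all named genes, with -0.01, -0.02 and -0.07. Since H was always in Cy3, a probe's dye bias and its response cannot be told apart here.

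The members fell into different patterns in the vhl-1 mutant. Of 38 members with all 3 values, 17 were below 0 on every array (44.7%, against 27.2% of all named genes), 5 were above 0 on every array (13.2% against 24.4%) and 16 were mixed. A mean of -0.7 or less, the wild type threshold, was reached by 11 of the 40 members with a value (27.5%, against 9.38% of named genes). For the 149 genes with the same fall in wild type but a hif-1 mutant mean below -0.2, the vhl-1 mutant median was -0.89, 53 of 143 tested (37.1%) were lower and 0 were higher. The members thus lay between these genes and the whole array; the difference between the lists was not tested. Across the 38 tested members the wild type and vhl-1 mutant means had a Pearson r of 0.602, given as a description, since all arrays share one dye orientation and 2 genes, B0272.4 and T04C9.1, were far below the others in both.

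**Figure D3:**
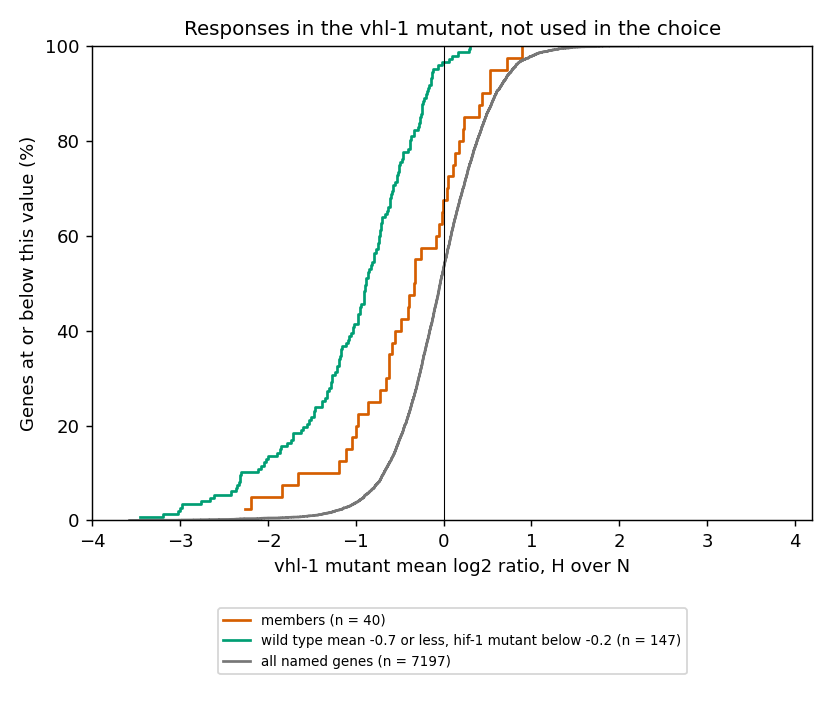
Cumulative share of genes (y, %) by mean log2 ratio of H over N in the vhl-1 mutant (x) for the 40 members with a value (orange), the 147 genes with a value that met the wild type condition with a hif-1 mutant mean below -0.2 (green) and the 7197 named genes with a value (grey). The orange curve lies left of the grey one up to about 0, and 67.5% of members were below 0, against 53.2% of named genes.

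F58G1.8 on chromosome II had the lowest p of the members in the vhl-1 mutant. It was at -2.05, -1.62 and -1.86 on the vhl-1 mutant arrays, at 0.47, 1.21 and -1.08 on the hif-1 mutant arrays and at -1.05, -0.97 and -0.92 on the wild type arrays. Every vhl-1 mutant value lay below every hif-1 mutant and wild type value, while the hif-1 mutant arrays lay on both sides of the wild type ones. Its vhl-1 mutant response was -1.84 ± 0.22 (SD, n = 3; SE of the limma fit 0.333, adjusted p = 0.00574), so N held 3.59 times as much of this RNA as H. It was the only member called in all 18 other fits, with adjusted p from 0.000692 to 0.0417.

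C15H9.2 on the X chromosome was the other member lower in the vhl-1 mutant than in wild type on every array. Its values were -1.40, -2.24 and -1.33 in the vhl-1 mutant, 1.25 and -1.27 on hif-1 mutant arrays 1 and 3, with none on array 2, and -1.06, -1.12 and -0.97 in wild type. The hif-1 mutant mean of -0.01 thus averages 2 opposite values. The vhl-1 mutant response was -1.66 ± 0.51 (SD, n = 3; limma adjusted p = 0.0210), a 3.15-fold difference; without vhl-1 mutant array 1, 2 or 3 the adjusted p was 0.0569, 0.175 and 0.0769.

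B0272.4 on X and T04C9.1 on chromosome III had the lowest means in the vhl-1 mutant and in wild type. B0272.4 was at -1.77, -2.66 and -2.36 in the vhl-1 mutant, at 3.51, 0.32 and -1.81 in the hif-1 mutant and at -2.76, -2.18 and -1.50 in wild type. Its hif-1 mutant arrays spanned more than 5 log2 units, and array 3 lay among the wild type values. The vhl-1 mutant response of B0272.4 was -2.26 ± 0.45 (SD, n = 3; SE 0.662, limma adjusted p = 0.0499), a 4.80-fold difference just past the threshold. The call was lost in 9 of 18 other fits, among them those without any 1 wild type array (adjusted p 0.0597 without array 1, 0.0648 without array 2 and 0.0598 without array 3) and those without any 1 vhl-1 mutant array (0.0981, 0.241 and 0.201).

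T04C9.1 was at -3.36, -2.97 and -0.24 in the vhl-1 mutant, at 1.51 and -0.56 on hif-1 mutant arrays 1 and 3, with no value on array 2, and at -2.18, -2.61 and -3.24 in wild type. vhl-1 mutant array 3 stood apart from the other two and overlapped the hif-1 mutant, while both hif-1 mutant values lay above every wild type value. The vhl-1 mutant response was -2.19 ± 1.70 (SD, n = 3; limma adjusted p = 0.0257). It was -1.60 without vhl-1 mutant array 1 (adjusted p = 0.138), -1.80 without array 2 (0.196) and -3.16 without array 3, where the call was kept.

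ttbk-2.2 on chromosome IV is the member with the clearest gene family, that of the tau tubulin kinases, protein kinases named for phosphorylating tau and tubulin in mammals. It was at -0.58, -1.0 and -1.35 in the vhl-1 mutant, at 0.15, 0.06 and -0.24 in the hif-1 mutant and at -0.86, -1.54 and -0.91 in wild type. The hif-1 mutant arrays lay above all others without overlap. Its vhl-1 mutant response was -0.98 ± 0.38 (SD, n = 3; limma adjusted p = 0.0232), a 1.97-fold difference; the adjusted p was 0.143 without vhl-1 mutant array 2 and 0.191 without array 3. These values average 2 spots that differed in the hif-1 mutant: one was at -1.24 in the vhl-1 mutant, -0.68 in the hif-1 mutant and -1.72 in wild type, the other at -0.71, 0.66 and -0.49. Neither spot alone would have met both mean thresholds.

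K12C11.3 on chromosome I had a small spread in both mutants. It was at -1.26, -0.85 and -0.91 in the vhl-1 mutant, at -0.31, 0.02 and -0.07 in the hif-1 mutant and at -1.52, -0.93 and -0.08 in wild type. The mutants did not overlap, while wild type array 3 lay among the hif-1 mutant values. The vhl-1 mutant response was -1.0 ± 0.22 (SD, n = 3; limma adjusted p = 0.0328), a 2.00-fold difference, with adjusted p of 0.134, 0.138 and 0.137 without vhl-1 mutant array 1, 2 and 3.

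C10A4.6 on X was at -0.69, -1.55 and -1.08 in the vhl-1 mutant, at 0.59, -0.69 and -0.24 in the hif-1 mutant and at -1.26, -0.28 and -1.14 in wild type. The mutants did not overlap, but their nearest arrays were at -0.693 (vhl-1 mutant) and -0.690 (hif-1 mutant), and wild type overlapped both. Its vhl-1 mutant response was -1.11 ± 0.43 (SD, n = 3; limma adjusted p = 0.0325), with 0.0511, 0.241 and 0.149 without vhl-1 mutant array 1, 2 and 3. K06A1.2 on chromosome II was at -1.30, -1.82 and -0.47 in the vhl-1 mutant, at -0.86, 0.86 and 0.11 in the hif-1 mutant and at -0.40, -0.67 and -1.07 in wild type, with overlap among all genotypes. Its vhl-1 mutant response was -1.19 ± 0.68 (SD, n = 3; limma adjusted p = 0.0386). That call was lost without vhl-1 mutant array 1, 2 or 3 (adjusted p 0.122, 0.277 and 0.0507), wild type array 2 (0.0539) or hif-1 mutant array 3 (0.0526).

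**Figure D4:**
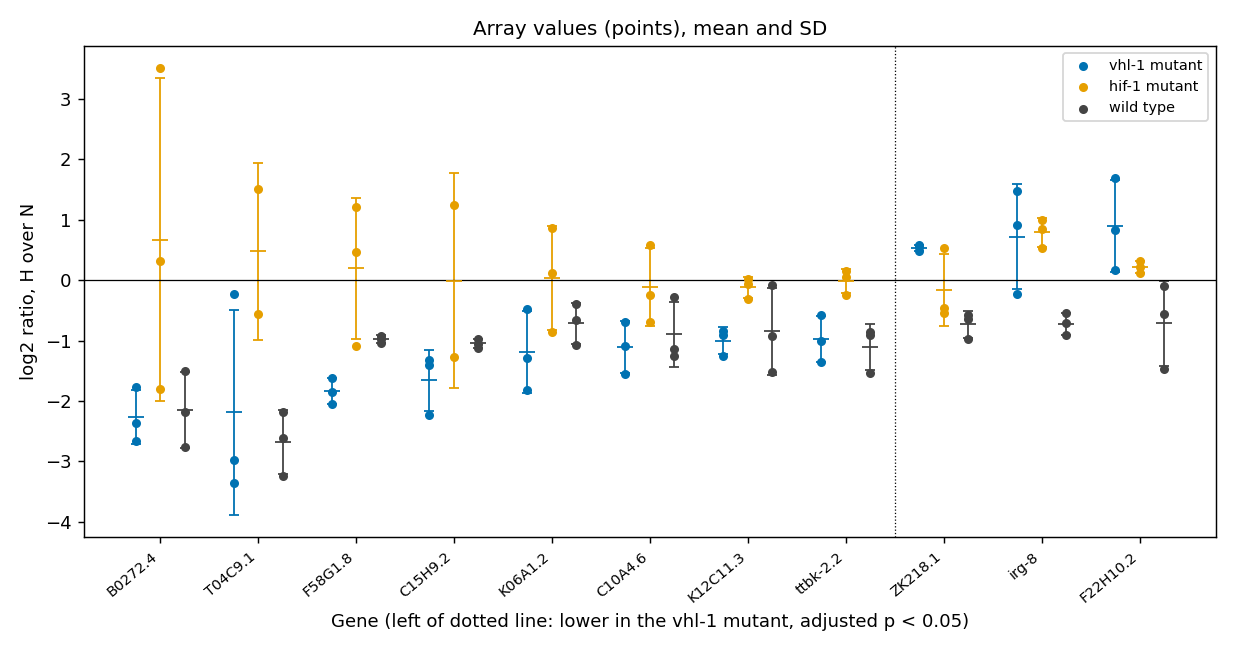
Log2 ratio of H over N on each array (points), with mean and SD (bars), for the 8 members lower in the vhl-1 mutant (left of the dotted line) and for ZK218.1, irg-8 and F22H10.2 with the highest vhl-1 mutant means (right), in the vhl-1 mutant (blue), the hif-1 mutant (orange) and wild type (dark). In B0272.4, C15H9.2 and F58G1.8 the orange points run from above 0 to below -1, while in ttbk-2.2 and K12C11.3 they stay close to 0.

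In 6 of these 8 genes, all but ttbk-2.2 and K12C11.3, at least 1 hif-1 mutant array was below -0.5, as in 12 of the 30 tested members that were not called. The median SD between hif-1 mutant arrays was 1.02 over the 8, against 0.56 over those 30. The medians of the 8 were 0.53, 0.19 and -0.40 on hif-1 mutant arrays 1, 2 and 3. In each of the 8, ttbk-2.2 and K12C11.3 included, the hif-1 mutant mean averaged values of opposite sign. This was common: 32 of the 36 members with all 3 hif-1 mutant values were mixed in sign. Of 36 members with all 6 values, 6 lay below the hif-1 mutant on every vhl-1 mutant array (ttbk-2.2, F58G1.8, C10A4.6, K12C11.3, C06G3.4 and F21G4.3), as did 4.89% of named genes, with hif-1 mutant values that the choice had used.

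Members close to the threshold in the vhl-1 mutant were C40A11.7 and C06G3.4. C40A11.7 on chromosome II was at -0.10, -1.87 and -1.16 in the vhl-1 mutant, at 0.64, -0.51 and -0.01 in the hif-1 mutant and at -0.93, -0.79 and -0.89 in wild type. Its wild type arrays were among the tightest of the list and lay below all hif-1 mutant values, and its vhl-1 mutant mean was -1.04 (limma adjusted p = 0.0533). It passed with print block centring (0.0416), with array quality weights (-1.26, 0.00462), with the replicate block (0.0377), without vhl-1 mutant array 1 (-1.51, 0.0211) and without hif-1 mutant array 1 (0.0436) or 2 (0.0383). C06G3.4, annotated as a pseudogene on chromosome IV, was at -0.76, -1.26 and -0.56 in the vhl-1 mutant, at 0.12, 1.13 and -0.45 in the hif-1 mutant and at -1.15, -0.44 and -0.78 in wild type (vhl-1 mutant mean -0.86, adjusted p = 0.0792). It passed without hif-1 mutant array 2 (0.0337), with the vhl-1 mutant arrays alone (0.0378) and with array quality weights (0.0148). Its 2 spots differed: one gave -0.26 in the vhl-1 mutant, -0.48 in the hif-1 mutant and -0.27 in wild type, the other -1.47, 1.01 and -1.31.

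Beside C40A11.7 and C06G3.4, 7 members were below 0 on all vhl-1 mutant arrays without passing. These were ZC190.7 with a mean of -0.73 (limma adjusted p = 0.134), B0379.1 with -0.65 (0.125), ZK1240.8 with -0.62, T22D1.8 with -0.58, C45B2.2 with -0.48, M03B6.4 with -0.40 and F21G4.3 with -0.32. F21G4.3 on X was nearly the same on each vhl-1 mutant array (-0.28, -0.37 and -0.33), with 0.90, -0.15 and 0.61 in the hif-1 mutant and -0.32, -0.85 and -1.06 in wild type. M03B6.4 was measured by 2 spots at -1.05 and 0.24 in the vhl-1 mutant, -0.04 and -0.27 in the hif-1 mutant and -1.35 and -0.37 in wild type.

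The members with the highest vhl-1 mutant means were F22H10.2, irg-8, ZK218.1, C01G6.9 and T21E8.5, none past the test. F22H10.2 on X was at 1.69, 0.17 and 0.82 in the vhl-1 mutant, at 0.31, 0.22 and 0.13 in the hif-1 mutant and at -0.09, -1.48 and -0.56 in wild type. Each array of both mutants was above 0 and each wild type array below it; the vhl-1 mutant mean was 0.90 ± 0.76 (SD, n = 3; limma adjusted p = 0.0828). irg-8 on chromosome V was at -0.23, 0.91 and 1.48 in the vhl-1 mutant, at 0.85, 0.99 and 0.53 in the hif-1 mutant and at -0.54, -0.91 and -0.71 in wild type. Both mutants lay above wild type on every array. The vhl-1 mutant mean of irg-8 was 0.72 ± 0.87 (SD, n = 3; adjusted p = 0.127), and 1.20 without vhl-1 mutant array 1 (adjusted p = 0.0305); it also passed with array quality weights (0.88, adjusted p = 0.0194).

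ZK218.1 on chromosome V was at 0.48, 0.58 and 0.54 in the vhl-1 mutant, at -0.46, 0.53 and -0.54 in the hif-1 mutant and at -0.64, -0.58 and -0.98 in wild type. Its 3 vhl-1 mutant arrays were within 0.1 of each other (mean 0.53 ± 0.05, SD, n = 3; limma adjusted p = 0.177). T21E8.5 on X was at 0.31, 0.54 and 0.47 in the vhl-1 mutant, at -0.13, -0.41 and 0.28 in the hif-1 mutant and at -0.69, -0.94 and -0.78 in wild type (vhl-1 mutant adjusted p = 0.204). C01G6.9 on chromosome II, whose 2 spots were alike (0.60 and 0.46 in the vhl-1 mutant, 0.70 and 0.42 in the hif-1 mutant, -1.18 and -1.37 in wild type), was at -0.18, 1.25 and 0.51 in the vhl-1 mutant, at 0.67, -0.18 and 1.20 in the hif-1 mutant and at -0.35, -1.84 and -1.64 in wild type. It is 1 of 8 members, of 37 with all 6 values, that lay above wild type on every vhl-1 mutant array, as did 8.8% of named genes; the wild type values were used in the choice. The others were F22H10.2, irg-8, ZK218.1, T21E8.5, F47B7.5, ZK512.1 and Y43F8B.11.

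The remaining tested members had vhl-1 mutant means between -0.62 (T26C12.2) and 0.41 (F16G10.15) with adjusted p of 0.359 or more. T26C12.2 on chromosome IV showed a wide range in the hif-1 mutant, at -0.54, -1.53 and 0.20 in the vhl-1 mutant, -1.15, 2.06 and -0.57 in the hif-1 mutant and -1.32, -0.96 and -0.56 in wild type. Other members low in wild type had most of their fall on 1 wild type array. ZK1240.8 on chromosome II was at -0.03, -1.43 and -0.40 in the vhl-1 mutant, 0.31, 0.62 and -0.26 in the hif-1 mutant and -2.73, -0.76 and -0.03 in wild type. nssp-36 on chromosome III was at 0.46, -0.03 and -0.29 in the vhl-1 mutant, 0.40, -0.55 and 0.48 in the hif-1 mutant and -1.75, -0.30 and -0.10 in wild type. R07B1.5 on X was at -0.42, 0.19 and 0.07 in the vhl-1 mutant, -0.28, 0.27 and 0.38 in the hif-1 mutant and -0.34, -0.80 and -1.97 in wild type. T02G6.3 on chromosome I was spread more evenly, at 0.36, -0.78 and -0.77 in the vhl-1 mutant, -0.17, 0.18 and -0.26 in the hif-1 mutant and -1.45, -0.62 and -0.94 in wild type.

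Missing values touched 6 members, which lacked 18 values in all, and 3 of these were not tested. Y45F3A.9 (chromosome III) rested on 1 array of each genotype, at -0.55 in the vhl-1 mutant, 0.16 in the hif-1 mutant and -1.92 in wild type. F58A4.6 (chromosome III) was at -0.40 and 0.66 in the vhl-1 mutant, at 1.26 and 0.54 in the hif-1 mutant and at -1.52 on its 1 wild type array. Y47H9B.2 (chromosome I) had no vhl-1 mutant value and was at 0.54 and 1.74 in the hif-1 mutant and -0.72 and -2.18 in wild type. C05B5.5 (chromosome III) was at 0.25, 0.22 and -1.45 in the vhl-1 mutant, at 1.09, -0.56 and -0.14 in the hif-1 mutant and at -1.14 and -1.44 on its 2 wild type arrays (vhl-1 mutant mean -0.32, limma adjusted p = 0.60).

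The membership itself moved with single arrays. Without wild type array 1, 2 or 3 the same thresholds gave 171, 79 and 64 genes, which held 34, 29 and 29 of the 41 (82.9%, 70.7% and 70.7% of the members, and 19.9%, 36.7% and 45.3% of the new lists). Fewer wild type arrays also make the condition that all be below 0 easier to meet. Without hif-1 mutant array 1, 2 or 3 there were 42, 53 and 48 genes with 28, 34 and 36 members. Only C01G6.9, ttbk-2.2 and Y47H9B.2 were chosen in all 6 of these lists. Y47H9B.2 had no value on array 1 of wild type or of the hif-1 mutant, so leaving those out changed nothing for it. ttbk-2.2 met the thresholds only as the average of 2 unlike spots. With each print block of the array centred on its own median, 27 genes met the thresholds, of which 19 were members (46.3% of the 41).

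**Figure D5:**
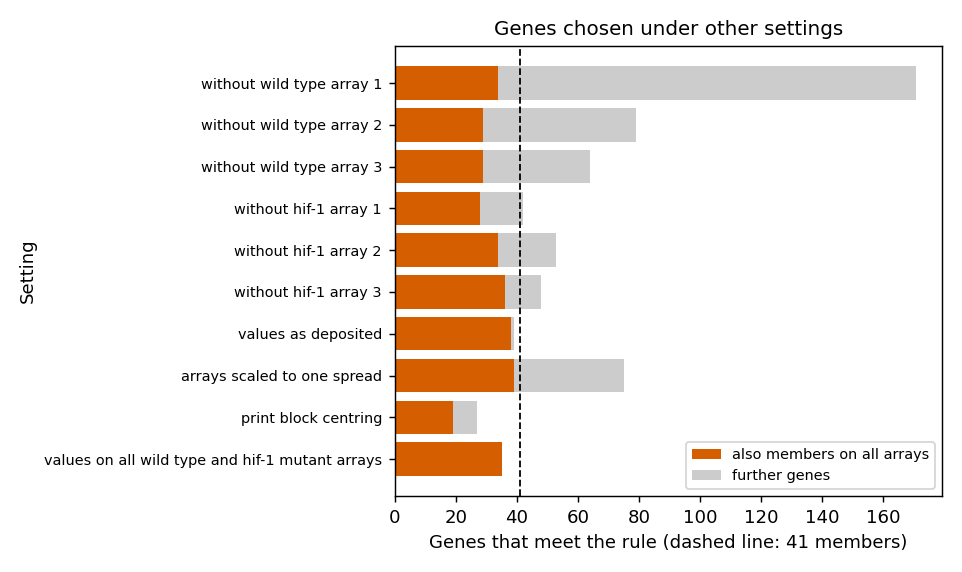
Number of genes that met the thresholds (x) under 10 other settings (y), with the part that also belonged to the 41 members in orange and further genes in grey. The list grows to 171 genes without wild type array 1 and shrinks to 27 with print block centring, of which 34 and 19 were members.

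The share of members lower in the vhl-1 mutant, with the members chosen anew, was 5.95% of 168 tested genes without wild type array 1, where 5 were higher, 11.7% without array 2 and 12.9% without array 3. It was 17.9%, 14.0% and 30.4% without hif-1 mutant array 1, 2 and 3. In these 6 settings the array was left out of the choice only. The calls were those of the main fit, where 3.61% of named genes were lower. With print block centring the share was 25.0%, where 4.65% of named genes were lower. The share was 9.72% with arrays scaled to one spread, where 2.31% were, and 22.2% with values as deposited, where 3.75% were. These alternatives were added after the data were seen. With the 41 members kept, 3, 1 and 2 of 38 were lower without vhl-1 mutant array 1, 2 and 3 (7.89%, 2.63% and 5.26%), where 1.55%, 0.651% and 1.07% of named genes were. Without hif-1 mutant array 3, 5 of 36 were lower (13.9%), where 2.88% of named genes were. With only the vhl-1 mutant arrays in the fit, so that no array used in the choice entered it, 9 of 38 members and 5.84% of named genes were lower.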

How the data were processed

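Total RNA was measured on 9 spotted 2-colour arrays, 3 per genotype. The authors deposited 1 log2 ratio per spot and array (21888 spots); its base and direction are assumed, and no label or header describes image analysis, background correction or normalisation. The deposited array medians, turned to H over N, ran from -0.061 to 0.062, and cells that were null (3303) or blank (1156) counted as missing. The platform annotation names 1 gene for 7774 spots, several for 0 and none for 14114; 7741 were matched to the WBcel235 gene table, which updated names and gave chromosomes. Without intensities, signal over background cannot be given.

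Arrays were centred on their medians, spots with fewer than 2 values in any genotype dropped, and spots of a gene averaged, which left 20858 features. limma 3.58.1 in R 4.3.3 fitted 1 mean per genotype to all 9 arrays (lmFit, eBayes; 6 residual degrees of freedom), and the vhl-1 mutant mean was tested against 0 with Benjamini-Hochberg adjustment over all features at 0.05. The median SE of that response was 0.266, and precision is limited by there being 3 arrays for each genotype. The procedure was tested on simulated data. Members and lists were chosen with earlier results of these data known. Genes named are members called, with the lowest or highest means, nearest the thresholds or with a gene name; others were chosen after their values were seen. Alternatives were values as deposited, scaling, print block centring, named genes alone, vhl-1 mutant arrays alone, a replicate block, complete features, single spots, array weights and each array left out.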

Additional observations from a re-analysis of the deposited data

Results flagged for a closer look

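In 5 of the 38 members with all 3 vhl-1 mutant values (13.2%) every vhl-1 mutant array was above 0. Every wild type array was below 0, as the choice required. The differences of the means, vhl-1 mutant minus wild type, were 1.61 for F22H10.2, 1.27 for ZK218.1, 1.24 for T21E8.5, 1.05 for ZK512.1 and 1.03 for F47B7.5. In 3 of the 36 members with all 3 hif-1 mutant values (8.33%) every hif-1 mutant array was above 0, with wild type again below 0 by the choice. The differences, hif-1 mutant minus wild type, were 1.51 for irg-8, 1.16 for F31A3.3 and 0.93 for F22H10.2. The differences from the vhl-1 mutant were not tested, because the wild type values had chosen the members. The hif-1 mutant minus wild type contrast passed for 0 of the 38 tested members, these 3 among them, in limma (17 with an unadjusted p under 0.05), on values that had all been used in the choice. Among all named genes with the values needed, 24.4% were above 0 on every vhl-1 mutant array and 15.5% on every hif-1 mutant array. Both shares were lower among the members.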

How the results depend on the processing

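The 8 members lower in the vhl-1 mutant were 6 to 12 in the 9 fits that left out no single array. With an array left out they were 1 to 10. Array weights gave the 12 (31.6% of 38, against 11.1% of named genes). The fit without hif-1 mutant array 2 gave the 10 (26.3% of 38, against 5.275%). The fit without vhl-1 mutant array 2 gave the 1 (2.63% of 38, against 0.651%). 0 members were higher except irg-8 with array weights (1 member higher, 0 to 1 with an array left out). The calls of C10A4.6, C15H9.2, T04C9.1 and ttbk-2.2 were lost only without single vhl-1 mutant arrays; C15H9.2 and T04C9.1 lacked the values for 3 of the 18 fits. Those of B0272.4 and K12C11.3 were also lost with arrays scaled to one spread (limma adjusted p = 0.0718 and 0.0546), those of B0272.4 and K06A1.2 with named genes alone (0.0673 and 0.0545), and that of B0272.4 with print block centring (0.0545). No called member changed direction. Of the 30 tested but uncalled members, 9 changed sign in at least 1 of 18 fits, all with a size of 0.325 or less in the main fit. In the fit of single spots, each of the 4 members with 2 spots was read only at the spot farther from 0. The other spot of M03B6.4, at 0.24 in the vhl-1 mutant against -0.40 for the gene, is thus not in this count. The members' median, with the 41 members kept, ran from -0.503 to -0.242 with an array left out, against -0.329. With the members chosen anew it was 0.117 without wild type array 1, so its sign changed. It was -0.219 and -0.301 without wild type array 2 and 3, and -0.573, -0.302 and -0.621 without hif-1 mutant array 1, 2 and 3. Features lower in the vhl-1 mutant, 1074 of 20858, were 2581 with array weights and 364 to 1358 with an array left out. Those higher, 841, were 555 with scaling, 1329 with the vhl-1 mutant arrays alone and 2496 with array weights. With an array left out 48 to 1254 were higher. With the 7179 named genes alone 174 were lower and 128 higher. The main fit called 259 of these genes lower and 183 higher. The number of members, 41, was 75 with scaling, 27 with print block centring and 42 to 171 with an array left out. The cause was not tested. Correlations of deviations ran from -0.204 to 0.272 over 9 pairs of same-numbered arrays and from -0.257 to 0.270 over pairs with different numbers. The highest, 0.272, was that of array 1 of wild type and of the hif-1 mutant. As the ranges were alike, the numbers are not taken as pairs. With the replicate block 9 members were lower (23.7%, against 3.33% of named genes), C40A11.7 in addition (limma adjusted p = 0.0377). Without intensities, what depth limits is unknown.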
